A study of Mus musculus with 6 samples.

Results

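The 7 genes of the tripartite motif (TRIM) family described here, Trim30a, Trim30d, Trim21, Trim14, Trim26, Trim27 and Trim28, were measured on 6 mouse whole-transcript arrays. They were chosen by name as the probe sets annotated to the listed genes, with earlier results of these data known. All 7 were measured, each by 1 probe set that named no other gene, out of 19938 genes measured in all. The arrays held total RNA of 3 established cell lines, namely NIH3T3 embryonic fibroblasts, L929 connective tissue fibroblasts and the macrophage line RAW264.7. Each line was either given the type I interferon IFN-β (interferon-beta) for 4 h or left unstimulated, with 1 array for each of these 6 groups. The stated purpose of the series was to find genes whose transcription IFN-β regulates. The labels give no dose of IFN-β and no replicate cultures, so differences within a line carry no error, and tests of IFN-β treat the 3 lines as its replicates. Precision is limited throughout by the number of arrays. Levels are log2 values made by the authors with RMA, and a change is the stimulated minus the unstimulated array of a line.

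TRIM proteins share a RING finger, a B-box and a coiled coil, and most are ubiquitin ligases through the RING finger. Several act in antiviral defence, either on viral components or on the sensors and adaptors that lead to interferon production, and part of the family is itself induced by interferon. Trim14 has the family's other domains without the RING finger, so the name ubiquitin ligase covers it only by kinship. Trim30a and Trim30d lie next to each other on chromosome 7 in a run of related TRIM genes, and Trim21 and Trim28 lie elsewhere on the same chromosome. Trim14 is on chromosome 4, Trim26 on chromosome 17 and Trim27 on chromosome 13.

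The lines carried the markers of their labels. The median log2 level of 10 macrophage markers was 10.72 on the stimulated and 10.62 on the unstimulated RAW264.7 array, and between 4.13 and 4.36 on the 4 fibroblast arrays. For 10 fibroblast markers the medians were 4.66 and 4.90 in RAW264.7, and between 8.96 and 10.83 on the fibroblast arrays. Medians of 6 epithelial markers lay between 4.80 and 5.43 and those of 5 lymphocyte markers between 4.25 and 4.52 on all arrays. IFN-β acted in each line: the 5 measured genes of an interferon control list, Ifit1, Mx1, Irf7, Rsad2 and Usp18, were at least 3-fold higher in all 3 lines. The stimulated NIH3T3 array stood apart in scale. The median change of all genes in NIH3T3 was 0.17, against -0.05 in L929 and -0.03 in RAW264.7. For 6 housekeeping genes the NIH3T3 median was -0.58, against -0.09 in L929 and -0.16 in RAW264.7. In NIH3T3 the lower quartile of all genes was 4.1 with IFN-β against 3.79 unstimulated, and the upper quartile 7.39 against 7.32. NIH3T3 values carry this difference in scale, which was not the same at low and high levels.

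The promoters were examined because interferon-induced genes often carry an interferon-stimulated response element. Its core was searched as GAAANNGAAA on both strands, overlaps allowed, in RefSeq windows of 250 bases before to 50 bases after each transcript start (GRCm38.p6). Of the 7 genes 6 had a window. The core was in the windows of Trim30a, Trim30d, Trim26 and Trim21, 4 of 6 genes, against 3.99% of the 27025 genes with a window. It was not in those of Trim27 and Trim28. The stretches that hold the core follow, 5′ to 3′ on the strand of the gene, with the bases matched by the core in capitals. Trim30a and Trim30d are shown for the 120 bases before the start (chr7:104465194-104465313 and chr7:104507850-104507969, minus strand), Trim26 for 70 bases around the match (chr17:36836956-36837025, plus strand) and Trim21 for 30 transcribed bases (chr7:102565447-102565476, minus strand).
Trim30a: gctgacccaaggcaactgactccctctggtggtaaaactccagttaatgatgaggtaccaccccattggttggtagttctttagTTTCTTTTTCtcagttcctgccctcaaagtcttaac
Trim30d: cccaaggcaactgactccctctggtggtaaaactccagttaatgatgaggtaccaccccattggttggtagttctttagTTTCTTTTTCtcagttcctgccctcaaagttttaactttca
Trim26: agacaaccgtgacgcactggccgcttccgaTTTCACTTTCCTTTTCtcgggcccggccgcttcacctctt
Trim21: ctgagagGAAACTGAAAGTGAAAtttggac

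The match in Trim30a lay at positions -36 to -27 from the start and that in Trim30d at -41 to -32. The 250 bases before both starts aligned with 227 identical bases over 255 columns, 89.0%, so their matches are copies of one sequence and not separate observations. Trim30a has another start in RefSeq, whose window also held the core. Trim26 held a pair of overlapping matches, at -160 to -151 and at -154 to -145. Trim21 held overlapping matches after the start, at positions 14 to 23 and 20 to 29. A gamma-activated site, searched as TTCNNNGAA on both strands, was in the windows of 0 of the 6 genes and of 9.55% of all genes. A match describes these letters and is not a bound site.

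IFN-β raised 4 of the 7 genes across the lines. Trim30a, Trim30d and Trim21 were at least 4.16-fold higher in every line, and Trim26 was between 1.63-fold and 2.76-fold higher. Trim14, 4.46-fold higher in RAW264.7 but with folds of 1.65 in NIH3T3 and 0.846 in L929, did not pass the test, nor did Trim27 and Trim28, whose mean changes were 0.01 and -0.07. The test was limma with the cell line as a block and Benjamini-Hochberg adjustment over all genes, at an adjusted p under 0.05. Of the 19938 genes 0.732% were called higher and 0.0% lower, so that the 0 members called lower in limma do not set them apart. At an unadjusted p under 0.05 there were 5 members higher and 0 lower, against 4.2% of all genes higher and 1.27% lower. The median of the mean changes was 1.20 over the 7 genes and 0.03 over all genes. Because the 7 genes were chosen with earlier results of these data known, these counts and medians only describe them.

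**Figure D1:**
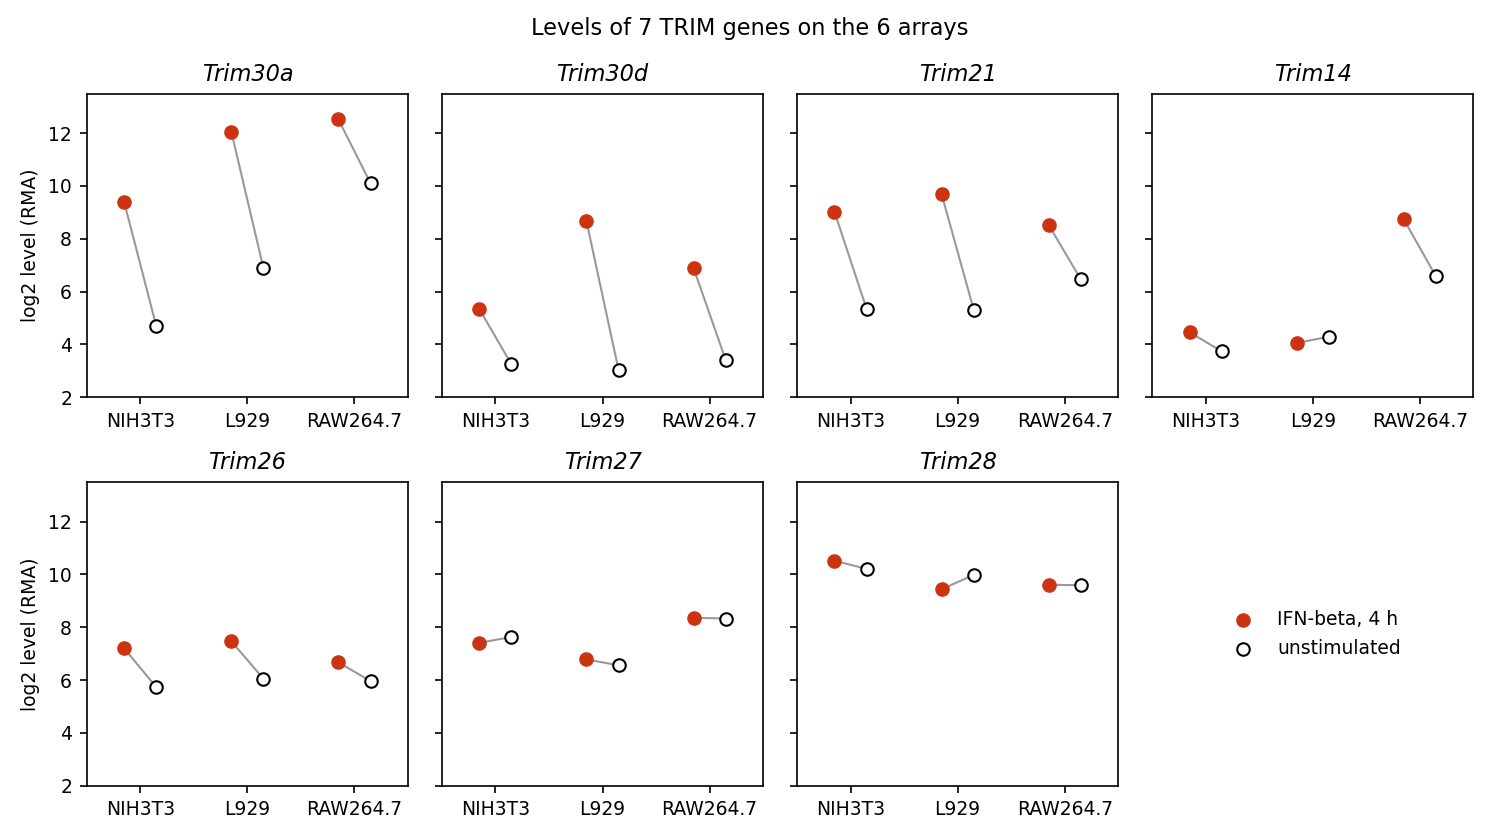
Log2 RMA level (y axis) of each of the 7 TRIM genes on the 6 arrays, 1 point per array, with a line joining the stimulated (filled) and unstimulated (open) array of each cell line. Trim30a, Trim30d, Trim21 and Trim26 are higher with IFN-β in all 3 lines, the points of Trim14 lie 2.16 apart in RAW264.7, and Trim27 and Trim28 differ by at most 0.54 within a line.

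Trim30a (Entrez gene 20128, probe set 10566358) encodes a mouse protein known to restrain Toll-like receptor and NF-kB signalling by promoting loss of the adaptors TAB2 and TAB3. Its log2 level was 9.39 with IFN-β against 4.69 unstimulated in NIH3T3, 12.06 against 6.89 in L929, and 12.52 against 10.10 in RAW264.7. Every line was higher when stimulated, but the groups overlapped, because unstimulated RAW264.7 lay above stimulated NIH3T3. The log2 changes were 4.70, 5.17 and 2.41 in NIH3T3, L929 and RAW264.7, or 26.0-fold, 36.0-fold and 5.32-fold. These changes ranked 12, 35 and 63 among all genes of their lines. The mean change was 4.09 ± 0.41 (limma SE, n = 3 lines) or 17.1-fold (limma adjusted p = 0.00116). That SE was drawn toward the SE of all genes, and the SD between the lines was 1.48. The levels of the 3 lines spanned 3.13 with IFN-β and 5.42 without it.

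Trim30d (209387, probe set 10566366) is a paralogue next to Trim30a, reported to restrict tick-borne flaviviruses. It had levels of 5.34 with IFN-β against 3.24 unstimulated in NIH3T3, 8.67 against 3.03 in L929, and 6.89 against 3.41 in RAW264.7. All stimulated arrays lay above all unstimulated ones, which held for 4.85% of all genes. Its changes were 2.10, 5.64 and 3.48, or 4.30-fold, 49.9-fold and 11.2-fold, in the same order of lines. In each line the unstimulated level was below the lower quartile of its array, so these folds start from a low signal and are approximate. The mean change was 3.74 ± 0.49 (limma SE, n = 3 lines), with a limma adjusted p of 0.00465 and an SD between the lines of 1.78. Here the lines differed little before stimulation, with a span of 0.38, and more after it, with a span of 3.33.

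Trim30a and Trim30d did not follow the same order of lines. Trim30a changed more in NIH3T3 than in RAW264.7, by 4.70 against 2.41, while Trim30d changed less, by 2.10 against 3.48. With 1 pair of arrays a line this was not tested. The annotation of their probe sets shared 0 accessions. How far probes of one could bind RNA of the other was not tested, and both values are uncertain to that extent.

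Trim21 (20821, probe set 10566144) encodes a cytosolic antibody receptor that sends antibody-coated virus to the proteasome, known also as the autoantigen Ro52. Its level was 9.02 with IFN-β against 5.34 unstimulated in NIH3T3, 9.69 against 5.31 in L929, and 8.52 against 6.46 in RAW264.7. Stimulated and unstimulated arrays did not overlap, with every stimulated array higher, as for 4.85% of all genes. The changes of 3.68, 4.38 and 2.06 were 12.8-fold, 20.8-fold and 4.16-fold. Their mean was 3.37 ± 0.35 (limma SE, n = 3 lines) or 10.3-fold (limma adjusted p = 0.00128), and their SD between the lines 1.19. The line with the highest unstimulated level, RAW264.7, had the lowest stimulated one, and the spans over the lines were 1.17 with IFN-β and 1.15 without.

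Trim26 (22670, probe set 10445033) is a gene of the MHC region whose product acts on IRF3 and on the kinase complex that activates it. It was at 7.20 with IFN-β against 5.73 unstimulated in NIH3T3, 7.47 against 6.05 in L929, and 6.67 against 5.96 in RAW264.7. Every stimulated array lay above every unstimulated one, as for 4.85% of all genes. The folds of 2.76, 2.68 and 1.63 were below 3 in each line. The mean change was 1.20 ± 0.19 (limma SE, n = 3 lines) with a limma adjusted p of 0.0187. Its SD between the lines was 0.43, against 1.48 for Trim30a, 1.78 for Trim30d and 1.19 for Trim21. The call did not hold without NIH3T3 (adjusted p = 0.115, limma), without L929 (0.111) or after quantile normalization (0.0549).

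Trim14 (74735, probe set 10512766) encodes an adaptor that joins MAVS at mitochondria in RIG-I signalling. Its level was 4.46 with IFN-β against 3.73 unstimulated in NIH3T3, 4.05 against 4.29 in L929, and 8.73 against 6.57 in RAW264.7. Both RAW264.7 arrays lay above all 4 fibroblast arrays, and the unstimulated NIH3T3 level was below its array's lower quartile. The change was 2.16 in RAW264.7, 4.46-fold, with rank 73 among all genes there, and 0.72 in NIH3T3 and -0.24 in L929. The mean change of 0.88 (95% confidence interval 0.10 to 1.66, limma) had an unadjusted p of 0.0315 and an adjusted p of 0.824 in limma. Without RAW264.7 the mean change was 0.24.

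Trim27 (19720, probe set 10403903) encodes a nuclear and endosomal ligase, once named Ret finger protein, that works with the deubiquitinase USP7. It was at 7.41 with IFN-β against 7.63 unstimulated in NIH3T3, 6.78 against 6.56 in L929, and 8.36 against 8.33 in RAW264.7. The lines kept their order in both conditions, and the change was -0.22, 0.22 and 0.03. The limma 95% interval of the mean change ran from -0.37 to 0.38.

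Trim28 (21849, probe set 10550076) encodes the co-repressor KAP1, which KRAB zinc finger proteins bring to endogenous retroviruses together with the methyltransferase SETDB1 and heterochromatin proteins. Its level was 10.52 with IFN-β against 10.21 unstimulated in NIH3T3, 9.44 against 9.98 in L929, and 9.61 against 9.59 in RAW264.7. The changes of 0.31, -0.54 and 0.03 differed in sign between the fibroblast lines. The mean change was -0.07, with a limma 95% interval of -0.50 to 0.37. Relative to the median change of all genes in the line, the NIH3T3 value was 0.15 and the L929 value -0.49.

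**Figure D2:**
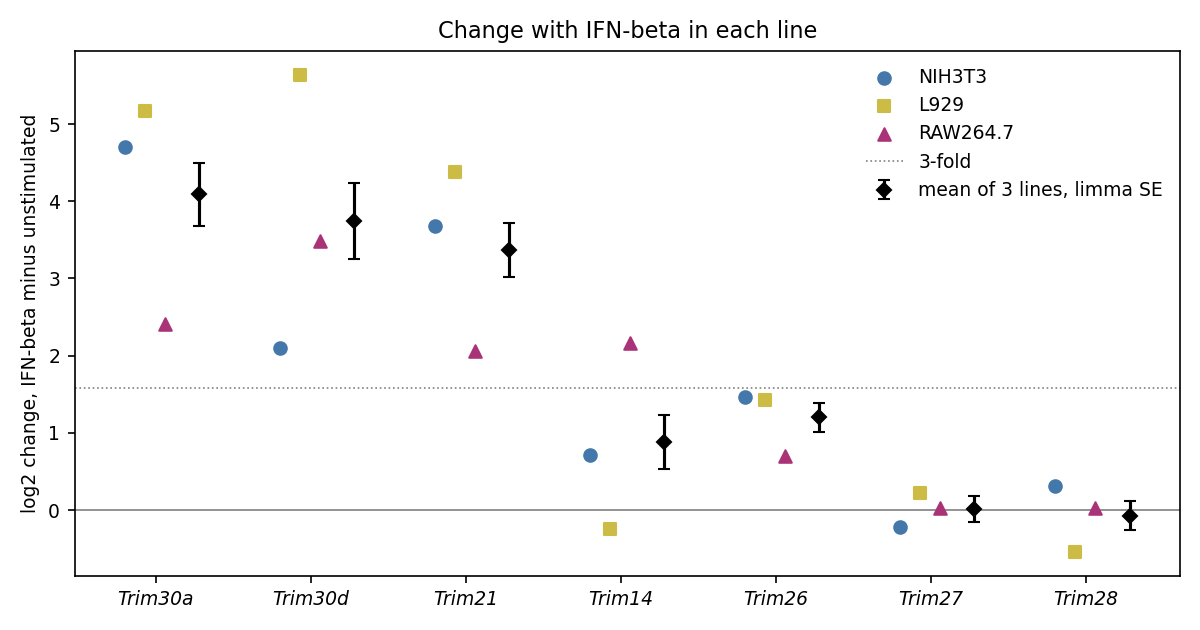
Log2 change with IFN-β (y axis) of each TRIM gene in NIH3T3, L929 and RAW264.7 (1 point per line), with the mean of the 3 lines and its limma SE as a black diamond and bar, and a dotted line at 3-fold. Trim30a and Trim21 lie lowest in RAW264.7, Trim30d lies lowest in NIH3T3, and Trim14 is above 3-fold in RAW264.7 alone.

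Counted within lines at the 3-fold level used in the series' design text, Trim30a, Trim30d and Trim21 were higher in all 3 lines, as were 0.311% of all genes. NIH3T3 had 3 members past this fold (0.476% of all genes), L929 had 3 (0.893%), and RAW264.7 had 4, with Trim14 added (0.617%). No member was 3-fold lower in any line, a fall seen for 0.0401% of all genes in NIH3T3, 0.01% of them in L929 and 0.0% in RAW264.7. These are counts without a test.

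The calls across lines were lost under other settings, and the cause was not tested. With every probe set of the array in the test, 0 of the 7 genes passed in limma, and the adjusted p of Trim30a was 0.122. With robust variances that follow the mean level 1 passed, Trim26, and the adjusted p of Trim21 was 0.184.

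The response of RAW264.7 was then compared with that of the fibroblast lines through an interaction term in limma, which called 0.236% of all genes. RAW264.7 had 1 pair of arrays, so the spread of its own response was not measured, and every gene was given the same SE, pooled over all genes from the pair of fibroblast lines. On that SE 3 of the 7 genes were called, and none of the 3 calls held after centring each array on its median or after quantile normalization. Trim30a changed by 2.41 in RAW264.7 against a fibroblast mean of 4.94, a difference of -2.52 ± 0.49 (SE; limma adjusted p = 0.000307). For Trim21 the change was 2.06 against 4.03, a difference of -1.97 (limma adjusted p = 0.0316). Trim14 went the other way, with 2.16 against 0.24, a difference of 1.92 (limma adjusted p = 0.0465). The differences of the genes not called were -0.39 for Trim30d, -0.74 for Trim26, 0.03 for Trim27 and 0.14 for Trim28, each with the same SE of 0.49. The 5 measured interferon control genes also changed less in RAW264.7 than in the fibroblast mean. Their differences were -3.86 for Usp18, -3.31 for Ifit1, -1.85 for Irf7, -1.09 for Rsad2 and -0.44 for Mx1. A smaller change in RAW264.7 was thus not particular to Trim30a and Trim21. At an unadjusted p under 0.05 there were 3 members, against 1.59% of all genes. With centring and with quantile normalization the limma adjusted p was 0.290 and 0.206 for Trim30a, 1.0 and 0.545 for Trim21, and 0.484 and 0.765 for Trim14, and the 3 differences kept their direction.

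Before stimulation the levels of Trim30a, Trim14, Trim27 and Trim21 were each highest in RAW264.7. Trim30a was at 10.10 there, above 6.89 in L929 and 4.69 in NIH3T3. Trim14 was at 6.57, above 4.29 and 3.73 in L929 and NIH3T3, and also above the stimulated fibroblast levels of 4.05 and 4.46. For Trim27 the values were 8.33, against 6.56 in L929 and 7.63 in NIH3T3, and for Trim21 6.46, against 5.31 and 5.34. Trim30d, Trim26 and Trim28 spanned 0.38, 0.31 and 0.62 over the unstimulated lines. Of these Trim30d was also highest in RAW264.7, at 3.41 against 3.24 in NIH3T3 and 3.03 in L929, each below the lower quartile of its array. With 1 unstimulated array a line, no spread within a line is known, and none of these orders was tested.

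The neighbours of Trim30a and Trim30d on chromosome 7 were set beside them. In order these are Trim6, Trim34a, Trim5, Trim12a, Trim34b, Trim12c, Trim30b, Trim30c, Trim30a, Trim30d and the pseudogene Trim30e-ps1, of which 7 had a probe set of their own. Trim12c is a mouse relative of the retroviral restriction factor TRIM5. It changed by 1.47 in NIH3T3 cells, 2.83 in L929 cells and 3.27 in RAW264.7 cells. Its mean change was 2.52 ± 0.29 (limma SE, n = 3 lines, limma adjusted p = 0.00203), with an SD between the lines of 0.94. Trim34a changed almost evenly, by 1.33, 1.78 and 1.66 (mean 1.59, limma adjusted p = 0.00145). Trim12a, Trim6 and Trim30e-ps1 did not pass, with mean changes of 0.26, 0.38 and 0.62. Unstimulated Trim12a and Trim30e-ps1 lay below the lower quartile of the array in every line, and Trim6 in NIH3T3 and RAW264.7. At such low signal a small change does not show a lack of response. Trim12c was below that quartile in L929 alone. The windows of Trim34a, Trim12a and Trim12c also held the GAAANNGAAA core. These genes are close relatives, and sharing of probes between them was not tested.

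**Figure D3:**
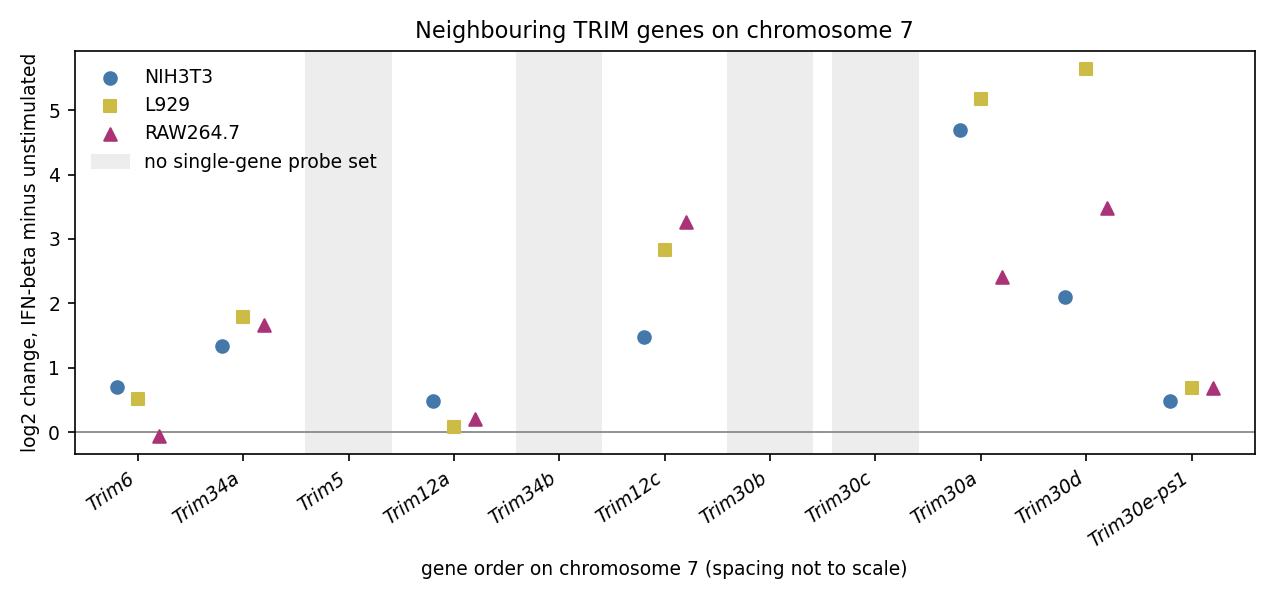
Log2 change with IFN-β (y axis) of the neighbouring TRIM genes in their order on chromosome 7 (x axis, spacing not to scale), 1 point per cell line, with genes lacking a probe set of their own shaded. Trim34a, Trim12c, Trim30a and Trim30d lie at 1.33 or more in every line, while Trim6, Trim12a and Trim30e-ps1 lie between -0.06 and 0.70. Unstimulated Trim12a, Trim30d and Trim30e-ps1 were below the lower quartile of the array in every line.

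The rest of the family was taken as every other gene whose symbol begins with Trim and a digit, plus Pml, the organiser of nuclear bodies also known as TRIM19. Of these 53 genes 3 rose, 5.66%, and 0 fell in limma (6 higher and 0 lower at an unadjusted p under 0.05). Over all genes 0.732% rose and 0.0% fell, and 4.2% were higher and 1.27% lower at that unadjusted p. The median of their mean changes was 0.00, beside 0.03 over all genes. The genes that rose were Trim12c, Trim34a and Pml, with Pml at 9.70 with IFN-β against 8.12 unstimulated in NIH3T3, 10.11 against 8.66 in L929, and 9.42 against 7.27 in RAW264.7. Pml rose by a mean of 1.73 ± 0.19 (limma SE, n = 3 lines, limma adjusted p = 0.00145), with an SD between the lines of 0.37. The widest range of change belonged to Trim25, the ligase that activates RIG-I, with 2.42 in NIH3T3 cells, 1.82 in L929 cells and 0.50 in RAW264.7 cells (mean 1.58, limma adjusted p = 0.0505). Its level was 10.08 with IFN-β against 7.65 unstimulated in NIH3T3 and 9.58 against 9.08 in RAW264.7. The GAAANNGAAA core was in the windows of 4 of the 41 of these genes with a window, 9.76%, namely Trim2, Trim34a, Trim12a and Trim12c.

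**Figure D4:**
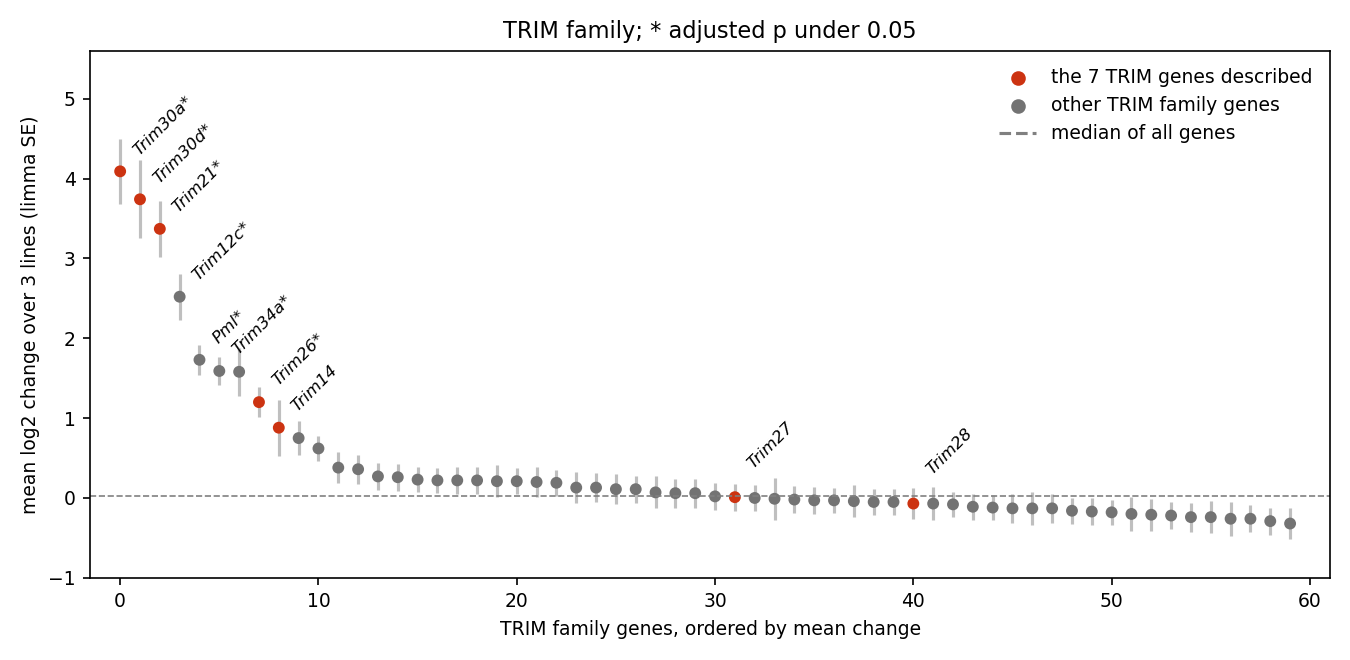
Mean log2 change over the 3 lines with its limma SE (y axis) of the 7 TRIM genes described (red) and 53 other family genes (grey), ordered by size, with an asterisk at an adjusted p under 0.05 and a dashed line at the median of all genes. Trim30a, Trim30d and Trim21 lie highest, at 4.09, 3.74 and 3.37, and Trim27 and Trim28 lie near the median of all genes.

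Known partners and targets of these proteins were listed as well, 19 genes, all measured. Of these 2 rose, 10.5%, and 0 fell in limma (3 higher and 0 lower at an unadjusted p under 0.05), against 0.732% and 0.0% of all genes (4.2% and 1.27% at the unadjusted p). Irf7, a transcription factor of interferon genes that Trim21 acts on, had a mean change of 3.96 (limma adjusted p = 0.000545), and Ddx58, which encodes RIG-I, one of 3.97 (limma adjusted p = 0.0027). The other 17 did not pass, namely the adaptors and kinases Mavs, Ikbkg, Tbk1, Tab2 and Tab3, the sensors Ddx41 and Nod2, the factors Irf3, Irf5 and Irf8, and Usp7, Vcp, Setdb1, Cbx1, Cbx3, Cbx5 and Chd4. Irf5 changed by -0.45 in NIH3T3 cells, 2.03 in L929 cells and 0.26 in RAW264.7 cells. The median of the mean changes over the 19 genes was -0.05.

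For each gene the 3 genes with the most similar pattern over the 6 arrays were found by the Euclidean distance of log2 levels after subtracting each gene's mean. Nearest to Trim30a were the nuclear body gene Sp100 (distance 1.21), Phf11d (1.71) and A530040E14Rik (2.09). Sp100 changed by 4.07 in NIH3T3 cells, 6.37 in L929 cells and 2.39 in RAW264.7 cells. Trim30d lay nearest to the death ligand gene Tnfsf10 (1.09), Gbp5 (1.12) and the RNA receptor gene Tlr3 (1.20). Tnfsf10 shared the order of its changes, 1.41, 5.48 and 4.41. The nearest genes to Trim21 were Oas1b (0.92), Helz2 (1.01) and Samd9l (1.02).

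Trim14 was nearest to Epsti1 (0.68), Themis2 (0.80) and Irf8 (0.80), and Epsti1 changed by 0.44, 0.59 and 2.08 in NIH3T3, L929 and RAW264.7. For Trim26 they were Slc25a22 (0.42), Tor1aip2 (0.52) and Tnfrsf14 (0.52), each higher in all 3 lines. Trim27 lay nearest to Limd2 (0.17), Rcor1 (0.22) and Mbnl1 (0.26), and Trim28 to Lrrc10b (0.12), Gigyf1 (0.14) and Dgcr2 (0.14). A small distance is easier to reach for a gene that varies little, so distances are not comparable between the 7 genes. They describe 6 arrays that share their cell lines.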

How the data were processed

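The deposited values are log2 levels per probe set, made by the authors with RMA, per the submitters' processing notes. No version or setting of it is stated there. The labels' protocols name an Affymetrix kit for whole-transcript labelling. The log base was read from the range of the values. Of 35557 probe sets 21789 named 1 gene, 1621 several and 12147 none. Single-gene probe sets were used, with symbols matched by Entrez ID for 21698, and the brightest on average was kept for the 999 genes with several. The 6 probe sets that name a TRIM gene beside another gene were not used. The array's own build is not given, so coordinates are those of the RefSeq promoter windows.

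Arrays were paired by cell line, as titled in the labels. limma 3.58.1 in R 4.3.3 fitted line plus treatment on all 19938 genes (2 residual degrees of freedom, prior 7.87), and an interaction for RAW264.7 (1 residual degree of freedom, infinite prior). Empirical Bayes draws each gene's SE toward that of all genes, so it understates the spread of genes that varied most between lines. P-values of the fit across lines measure the spread between these lines. Those of the interaction rest on the SE pooled over all genes from the pair of fibroblast lines. The fits were also run on data simulated under their own assumptions, so that run could not show whether these assumptions hold here. Python 3.11.15, numpy 2.4.6, pandas 2.3.3, matplotlib 3.10.9 and Biopython 1.88 did the rest. All listed genes were named, with called or widest-ranging family genes, called partners and 3 similar genes each. Irf5 and Sp100, Tnfsf10 and Epsti1 changes were added after their values were seen. The members and lists were chosen with earlier results of these data known. Alternatives were the probe set rule, all probe sets, median centring, quantile normalization, a level filter, empirical Bayes settings, no block, other thresholds and each line left out. Some genes of the control and marker lists are not reported here.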

Additional observations from a re-analysis of the deposited data

Results flagged for a closer look

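Trim30a, Trim21 and Trim14 are given here because the interaction test called their change in RAW264.7 against the mean of the fibroblast lines. The differences were -2.52 for Trim30a, -1.97 for Trim21 and 1.92 for Trim14, from 1 pair of RAW264.7 arrays, whose own spread was not measured. The 5 measured interferon control genes had negative differences too, from -0.44 for Mx1 to -3.86 for Usp18. Among them Mx1 and Rsad2 changed more in RAW264.7 than in NIH3T3, and less than in L929. All 3 calls were lost with median centring and with quantile normalization. At an unadjusted p under 0.05 there were 3 of the 7 genes, against 318 of 19938 genes.

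Trim14, Trim27 and Trim28 moved in opposite directions in different lines, and these differences were not tested. The widest was 2.40 for Trim14 (RAW264.7 minus L929), 0.44 for Trim27 (L929 minus NIH3T3) and 0.85 for Trim28 (NIH3T3 minus L929). Opposite signs between lines were seen for 14547 of the 19938 genes, so that this by itself sets a gene little apart.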

How the results depend on the processing

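The calls of Trim30a (4.09), Trim30d (3.74), Trim21 (3.37) and Trim26 (1.20) held in limma with arrays centred on the median and with a trended prior. The mean over probe sets left the values of these genes unchanged, because each had 1 probe set, so it was no separate check of them. With all probe sets their adjusted p-values were 0.122, 0.245, 0.122 and 0.278, and 0 members and 0 other family genes passed. With no replicate block, that is without the pairing by line, they were 1.0, 1.0, 0.273 and 1.0, with 0 and 0 passing. Robust variances with a trend gave 0.728, 0.830 and 0.184 for Trim30a, Trim30d and Trim21, and 1 member passed. The cause of these losses was not tested. Trim26 had 1.22 after quantile normalization (adjusted p = 0.0549). With each line left out in turn, the mean change ran from 3.56 to 4.94 for Trim30a, 2.79 to 4.56 for Trim30d, 2.87 to 4.03 for Trim21, 1.06 to 1.44 for Trim26 and 0.24 to 1.44 for Trim14. Trim27 ran from -0.10 to 0.12 and Trim28 from -0.26 to 0.17, both changing sign, as Trim27 did with median centring (-0.07). Other family genes called were 3 to 5 with a line left out, 5 without RAW264.7, where the prior was infinite. Of the differences of RAW264.7 from fibroblasts, Trim30a had -2.36 with centring and -2.47 with quantile normalization (adjusted p 0.290 and 0.206), Trim21 had -1.81 and -2.17 (1.0 and 0.545) and Trim14 had 2.08 and 1.96 (0.484 and 0.765), so 0 members were called under either. With genes above the median level alone, Trim21 had -1.97 (adjusted p = 0.0536), 1 member was called, and Trim30d and Trim14 were left out by the filter. Trim27 had -0.03 with quantile normalization. In RAW264.7, 2 members passed 3-fold under the level filter, a count that fell because the filter left out Trim30d and Trim14. Without that filter 2 members passed 5-fold there. Trim30d, near the floor of the arrays when unstimulated, is limited by signal over background.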

Other observations

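Among family genes outside the 7, Trim56, a ligase of antiviral defence, was higher in all 3 lines without passing the test, by 1.33 in NIH3T3 cells, 0.66 in L929 cells and 0.25 in RAW264.7 cells (limma adjusted p = 0.367). It was chosen after its values were seen. The pseudogene Trim30e-ps1 was at 2.86 with IFN-β against 2.38 unstimulated in NIH3T3, 3.28 against 2.60 in L929, and 3.67 against 2.97 in RAW264.7 (limma adjusted p = 0.253). Its levels were low on all 6 arrays.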
